A study of Rattus norvegicus with 8 samples.

Results

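The podocyte genes described here are Nphs1, Kirrel1, Cd2ap, Podxl, Ptpro, Synpo, Plce1 and Wt1, 8 genes that are characteristic of the glomerular podocyte. They were chosen by name, and a probe was taken for a member when the transcript it carries in the scanner files belongs to one of these genes. This gave 12 probes of the 30367 on the array, and the 8 genes are among 14737 with a named probe. The tissue was the renal cortex, cut into slices, of adult RCCHanTMWIST rats, 4 males and 4 females, and mRNA levels were read from 1 Cy3-labelled Agilent array per rat. No rat received a treatment, so sex is the comparison the design makes, and all rats shared strain, tissue and housing. A cortical slice holds glomeruli together with tubules and vessels, and its glomeruli were not isolated.

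Podocytes are the epithelial cells that wrap the capillaries of the glomerulus with interlocking foot processes. Neighbouring foot processes are joined by the slit diaphragm, a cell junction that filters plasma and is built on nephrin, the product of Nphs1. The shape of the foot processes depends on an actin cytoskeleton tied to this junction, on a negatively charged surface coat and on the transcription factor WT1, and inherited loss of several of these genes causes proteinuria.

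Each level below is the log2 of the processed signal of a probe minus the log2 of the 75th percentile of its array, so a value of 0 is a signal at that percentile. These levels were set against each other between rats and not between probes, since probes differ in how they bind their target. Levels of different probes were only added where lists are summed below, and such sums are weighted to the brighter probes. Differences are male minus female on the log2 scale, each from limma over 23425 probes, with a Benjamini-Hochberg adjusted p and a threshold of 0.05. The arrays resembled each other closely, with correlations of 0.992 to 0.995 within a sex and 0.983 to 0.991 between the sexes over all tested probes. Between 73.8% and 79.1% of the probes of an array stood well above background and saturation did not occur. All 12 podocyte probes were well above background on all 8 arrays, so none of them entered the test through 1 sex alone.

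Of the 8 podocyte genes, 3, counted at the probe of highest mean signal (the lead probe), were lower in male cortex, namely Plce1, Podxl and Ptpro. For comparison, 4.67% of all tested probes were called lower in males, 3.39% were called higher and 8.06% were called in either direction. No podocyte gene was called higher in males and none reached a 2-fold difference, a size that 1.89% of all tested probes reached with an adjusted p below 0.05. By the unadjusted p of limma, the same 3 lead probes were below 0.05, against 25.6% of all tested probes. The remaining 5 genes, Nphs1, Kirrel1, Cd2ap, Synpo and Wt1, did not pass the test. Of the 8 lead probes, 7 had a lower mean in males, with a median difference of -0.23, whereas 58.4% of all tested probes had a lower mean in males and their median difference was -0.0445. In slices of whole cortex, fewer podocytes, less RNA per podocyte and a different amount of RNA from other cells cannot be told apart.

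**Figure D1:**
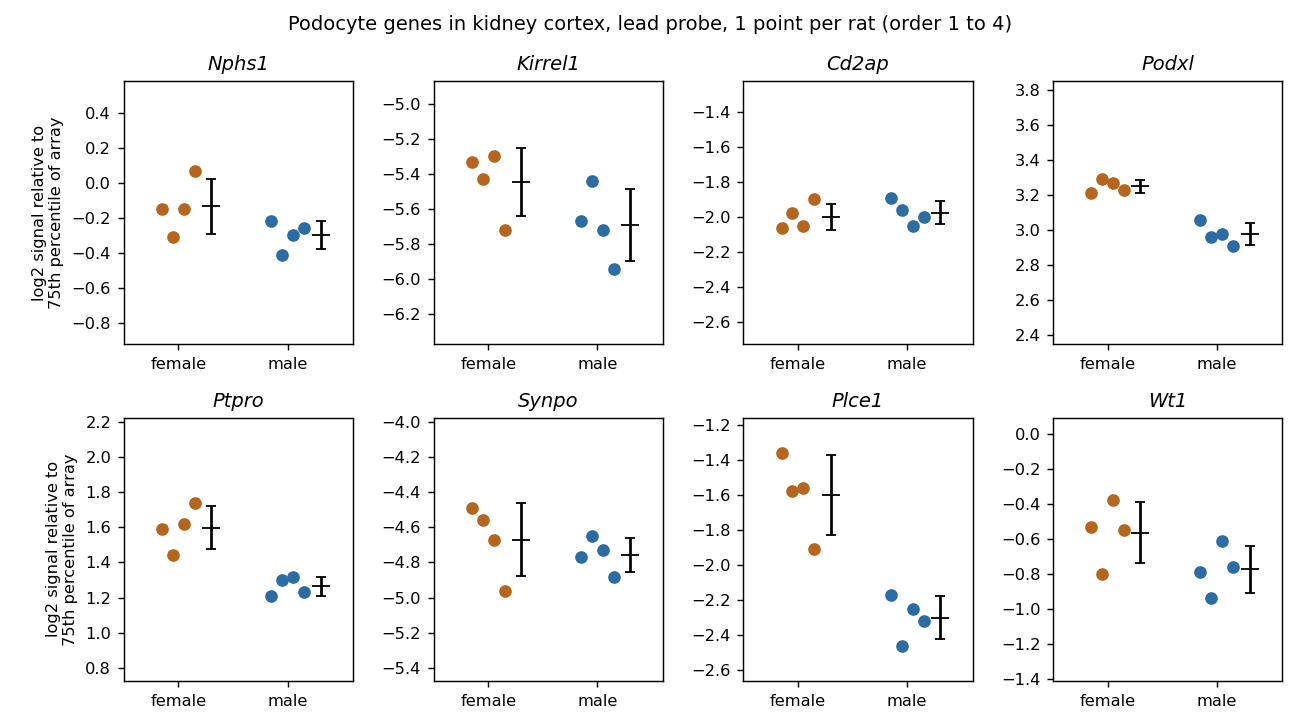
Levels of the 8 podocyte genes at their lead probes. The vertical axis is the log2 signal relative to the 75th percentile of the array and spans the same width in every panel, each point is 1 rat in the order of replicates 1 to 4, and the black mark and bar are the mean and SD of 4 rats. The sexes are apart for Podxl, Ptpro and Plce1 and overlap in the other panels.

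At the slit diaphragm the main structural gene, Nphs1, had female levels of -0.15, -0.31, -0.15 and 0.07 in replicates 1 to 4. The male levels were -0.22, -0.41, -0.30 and -0.26. Female replicate 4 was the highest of the 8 rats and male replicate 2 the lowest, and the sexes overlapped. The difference was -0.16 ± 0.0928 (SE, n = 4 per sex), with a 95% interval of -0.37 to 0.05 and a limma adjusted p of 0.32. Without female replicate 4 it was -0.0916. The other Nphs1 probe gave -0.17 with an adjusted p of 0.381 in limma.

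Kirrel1 encodes Neph1, an immunoglobulin-type protein that binds nephrin across the slit. Its levels were -5.33, -5.43, -5.30 and -5.72 in females and -5.67, -5.44, -5.72 and -5.94 in males. The females other than replicate 4 stood above every male, by 0.01 or more, and female replicate 4 lay at the level of male replicate 3. With a difference of -0.25 ± 0.131 (interval -0.55 to 0.05), Kirrel1 did not pass the test (limma adjusted p = 0.275), and it differed by -0.146 after quantile normalization.

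Cd2ap is an adaptor that links nephrin to actin and is made by many cell types besides podocytes. Female levels were -2.06, -1.98, -2.05 and -1.90, and male levels were -1.89, -1.96, -2.05 and -2.0. Both sexes spanned nearly the same range. Cd2ap was the only lead probe of the 8 with a higher mean in males, by 0.02 ± 0.0689, with an interval of -0.14 to 0.18 (limma adjusted p = 0.885). Without male replicate 1 its difference was -0.00775, so it had no settled sign.

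The mRNA of Podxl and of Ptpro was lower in males, with calls that each depended on single arrays. Podxl encodes podocalyxin, the sialylated glycoprotein that gives the foot processes their negative charge, and it is also made by endothelial cells. Its levels, each a mean over up to 10 spots of the probe, were 3.21, 3.29, 3.27 and 3.23 in females. Males had 3.06, 2.96, 2.98 and 2.91. Every female was above every male, with a gap of 0.16 between the nearest rats. Podxl was thus 1.21-fold higher in females, with a difference of -0.27 ± 0.0621 (SE, n = 4 per sex, interval -0.42 to -0.13) and an adjusted p of 0.0354 in limma.

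Ptpro encodes GLEPP1, a receptor tyrosine phosphatase of the apical foot process membrane. Female levels were 1.59, 1.44, 1.62 and 1.74, and male levels were 1.21, 1.30, 1.32 and 1.23. The sexes did not overlap, and the nearest rats, female replicate 2 and male replicate 3, were 0.12 apart. Ptpro was 1.26-fold higher in females (-0.34 ± 0.0787, interval -0.52 to -0.15, limma adjusted p = 0.0391). At its other probe the females had 0.67, 0.56, 0.88 and 0.96 and the males 0.44, 0.36, 0.49 and 0.55. There the sexes were only 0.02 apart, and the difference of -0.31 did not pass the threshold (limma adjusted p = 0.0999).

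The calls of Podxl and Ptpro lay close to the threshold. Podxl lost its call without any 1 of female replicates 1 to 4 or male replicates 2 to 4, with limma adjusted p-values of 0.0654 to 0.0903, and kept it without male replicate 1 (adjusted p = 0.0484). Ptpro lost its call without any 1 of the arrays other than female replicate 2, with limma adjusted p-values of 0.0654 to 0.0931, and kept it without female replicate 2 (adjusted p = 0.0341). The size of the differences moved little, from -0.301 to -0.237 for Podxl and from -0.387 to -0.288 for Ptpro over 18 alternative settings. With probes near background included, 1 of the 3 podocyte genes was still called, and Podxl and Ptpro had limma adjusted p-values of 0.0685 and 0.0722.

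Among the genes of the cytoskeleton and its signalling, Plce1 showed the largest sex difference of the 8 members. It encodes phospholipase C epsilon, a Ras-regulated enzyme of lipid signalling whose inherited loss causes nephrotic syndrome. Female levels were -1.36, -1.58, -1.56 and -1.91, and male levels were -2.17, -2.46, -2.25 and -2.32. All females were above all males, and the gap between female replicate 4 and male replicate 1 was 0.25. Plce1 was 1.62-fold higher in females, with a difference of -0.69 ± 0.123 (SE, n = 4 per sex, interval -0.97 to -0.41) and a limma adjusted p of 0.0136. A difference at least as large in size was found at 5.7% of all tested probes. The call was kept in all 18 alternative settings, with differences of -0.796 to -0.611 and limma adjusted p-values of 0.00496 to 0.0418.

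Synpo encodes synaptopodin, an actin-binding protein of the foot processes. Its levels were -4.49, -4.56, -4.67 and -4.96 in females and -4.77, -4.65, -4.73 and -4.88 in males. Female replicate 4 was the lowest of the 8 rats, and the males lay within the female range. The difference of -0.09 ± 0.11 had an interval of -0.34 to 0.16 and did not pass the test (limma adjusted p = 0.657). It was -0.0179 with quantile normalization and -0.0167 with the deposited log2 values. It was -0.186 without female replicate 4, -0.0305 without female replicate 1, -0.0527 without female replicate 2 and -0.0506 without male replicate 4.

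Wt1, the zinc finger transcription factor that maintains the podocyte programme, had 3 probes. At the lead probe the females had -0.53, -0.80, -0.38 and -0.55, and the males had -0.79, -0.94, -0.61 and -0.76. Female replicate 2 fell within the male range, and the other females were above all males. The difference was -0.21 ± 0.108 (interval -0.46 to 0.04, limma adjusted p = 0.262). The 2 dimmer probes gave -0.20 and -0.32, with limma adjusted p-values of 0.386 and 0.187.

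**Figure D2:**
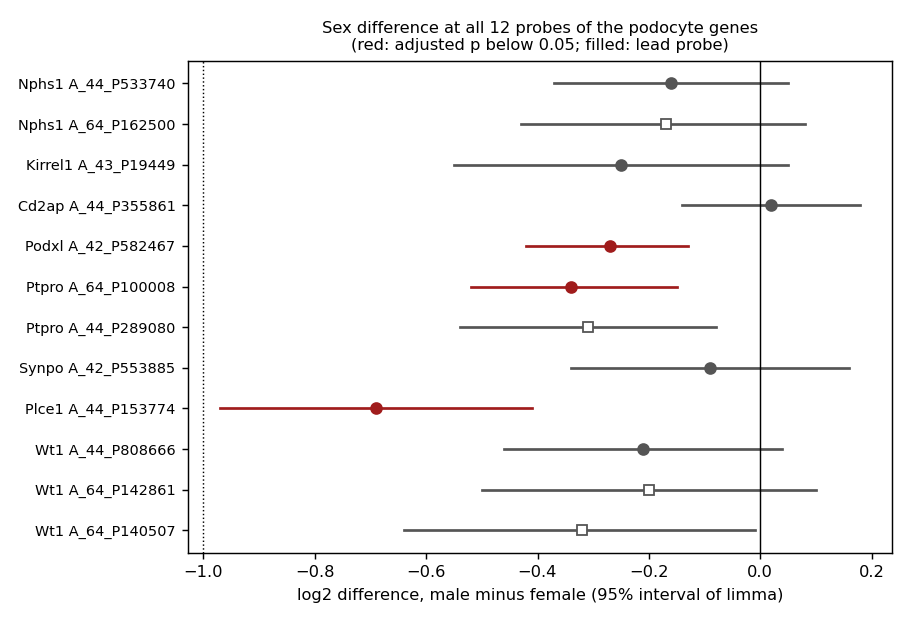
Male minus female difference (horizontal axis, log2) at all 12 podocyte probes with the 95% interval of limma. Filled circles are lead probes, open squares are other probes, red marks an adjusted p below 0.05, and the dotted line is a 2-fold difference. Of the 12 probes, 11 lie below 0 and 3 are called.

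In an exact two-sided permutation test over the 70 ways of dividing the rats, Podxl, Ptpro and Plce1 each gave p = 0.0286, the smallest value that this design allows. The sexes did not overlap at these 3 lead probes of 8, all lower in males, against 11% of all tested probes that were lower in males without overlap and 18.5% without overlap in either direction. The exact permutation p of the other lead probes ran from 0.114 for Nphs1 and Wt1 to 0.714 for Cd2ap.

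All 8 arrays lay on 1 slide in 2 rows, each with 2 males and 2 females, so the comparison could be made within each row. In row 1, which held female replicates 3 and 4 and male replicates 1 and 4, the differences were -0.50 for Plce1, -0.26 for Podxl and -0.46 for Ptpro. In row 2 they were -0.88, -0.28 and -0.21 for the same genes. With the row as a block the limma adjusted p of Ptpro was 0.0528, above the threshold, whereas Plce1 and Podxl kept their calls.

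**Figure D3:**
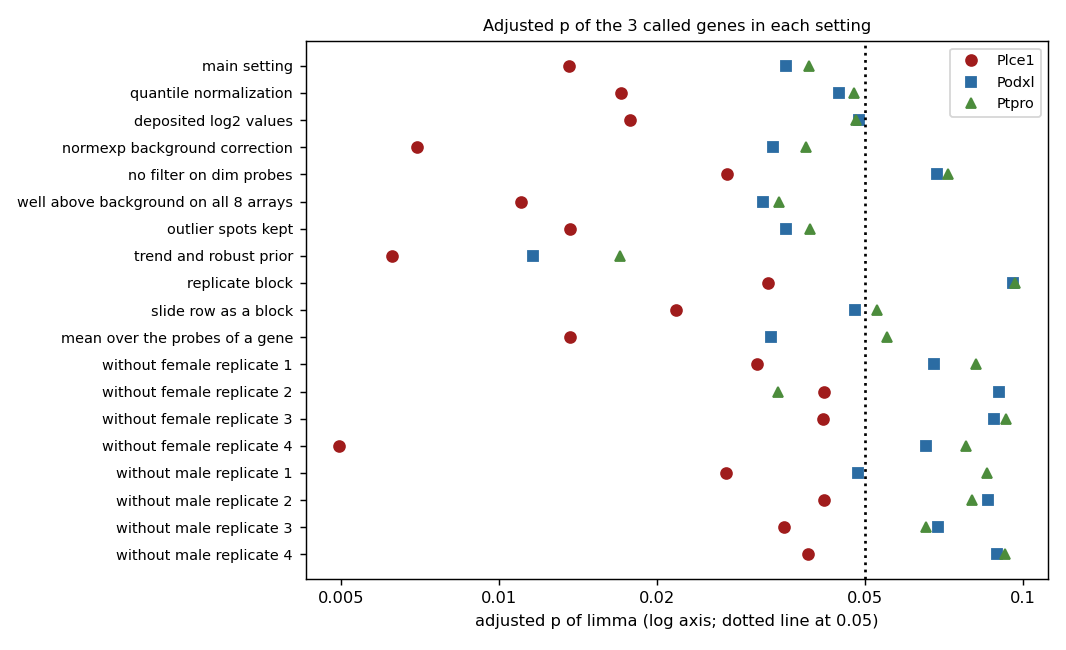
Limma adjusted p (horizontal log axis) of Plce1, Podxl and Ptpro in the main setting and 18 alternatives (vertical axis). Plce1 stays left of the dotted threshold of 0.05 in every setting, while Podxl and Ptpro cross it in 9 and 11 of them.

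To show what lies before the start of these genes, the 250 bases upstream of the annotated start were read from RefSeq (build GRCr8) for 7 of the 8 members, Plce1 being the member without an entry. Podxl (chr4:61149132-61149381, minus strand) and Ptpro (chr4:171895261-171895510, plus strand) are shown because both were lower in males, and Nphs1 (chr1:94848011-94848260, plus strand) as the slit diaphragm gene that did not pass the test. Sequences run 5′ to 3′ towards the start, and capitals mark matches to a motif of the kind WT1 binds, GNGNGGGNG, searched on both strands.
Podxl: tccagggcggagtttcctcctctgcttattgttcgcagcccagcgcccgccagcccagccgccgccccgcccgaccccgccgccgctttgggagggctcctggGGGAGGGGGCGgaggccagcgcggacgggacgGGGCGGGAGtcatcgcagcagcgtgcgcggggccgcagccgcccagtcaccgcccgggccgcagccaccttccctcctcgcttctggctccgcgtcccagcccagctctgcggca
Ptpro: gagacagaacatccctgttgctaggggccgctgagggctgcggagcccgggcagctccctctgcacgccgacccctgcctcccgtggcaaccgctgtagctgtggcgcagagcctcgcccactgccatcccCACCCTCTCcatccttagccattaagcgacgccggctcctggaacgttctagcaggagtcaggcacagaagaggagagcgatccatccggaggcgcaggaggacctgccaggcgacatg
Nphs1: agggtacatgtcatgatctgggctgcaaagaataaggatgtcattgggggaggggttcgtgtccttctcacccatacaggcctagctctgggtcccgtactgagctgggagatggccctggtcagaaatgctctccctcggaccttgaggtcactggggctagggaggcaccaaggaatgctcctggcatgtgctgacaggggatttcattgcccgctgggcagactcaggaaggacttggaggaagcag
The Podxl sequence held 3 matches, of which 2 overlap in the first run of capitals, the Ptpro sequence held 1 on the opposite strand, and the Nphs1 sequence held none. The GC content was 76.4% for Podxl, 66.0% for Ptpro and 57.2% for Nphs1, against a median of 51.2% over all promoters. Kirrel1 had 3 matches and Cd2ap had 2, so 4 of 7 members held the motif, as did 33.0% of 33469 promoters of the same length.

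Further motifs, each also searched on both strands, describe the same windows. The letters AGAACA, a half-site for the androgen receptor, occurred once among the members, in lower case near the 5′ end of the Ptpro sequence, and in 17.5% of all promoters. The BCL6 motif TTCCTNGAA, found in 1.47% of all promoters, had no match in the 7 members. A match is a run of letters and not a measured binding site.

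Covariation was examined over the 8 arrays for all 28 pairs of lead probes. For 10 pairs, those among Nphs1, Kirrel1, Cd2ap, Synpo and Wt1, the sexes overlap for both genes and a pooled correlation is given. Their median Pearson r was -0.05, with a range of -0.55 to 0.81, and none passed the threshold after Benjamini-Hochberg adjustment over the 28 pairs. By the unadjusted exact permutation p, 1 of the 10 pairs was below 0.05.

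The highest pooled correlation was that of Kirrel1 with Synpo, at r = 0.81 (exact permutation p = 0.0149, adjusted p = 0.176, 8 rats). Spearman's rho was 0.81 (exact permutation p = 0.0218, adjusted p = 0.203), and r was 0.89 without the 2 rats farthest from the Kirrel1 median. Of all tested probes, 2.46% were correlated with Kirrel1 at least as strongly in either direction. Both are dim probes, with mean signals of 126 and 225, and female replicate 4 had the lowest female level at each.

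Nphs1 and Wt1 had r = 0.69 (exact permutation p = 0.0522, adjusted p = 0.229) and rho = 0.81 (exact permutation p = 0.0218, adjusted p = 0.203). Without the 2 rats farthest from the Nphs1 median, r was 0.70. In contrast, Nphs1 and Synpo had r = -0.45 (exact permutation p = 0.263, adjusted p = 0.434), rho = -0.31 (exact permutation p = 0.462, adjusted p = 0.616), and r = 0.28 without the 2 farthest rats, so that the sign rested on those rats. A slide row held only 4 rats, too few for a correlation within a row. With the mean of each row subtracted, r was 0.82 for Kirrel1 with Synpo and 0.66 for Nphs1 with Wt1.

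In the other 18 pairs at least 1 gene separated the sexes, so a pooled correlation would repeat the sex difference. With the mean of each sex subtracted, as a description over 8 rats and with no test, 13 of the 28 pairs were above 0 and 15 below, with a median of -0.12. The lowest was -0.83 for Nphs1 with Synpo and the highest 0.82 for Kirrel1 with Synpo. Among the 3 genes lower in males, the values were 0.28 for Podxl with Plce1, -0.40 for Podxl with Ptpro and -0.57 for Ptpro with Plce1. These 3 values were of mixed sign.

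**Figure D4:**
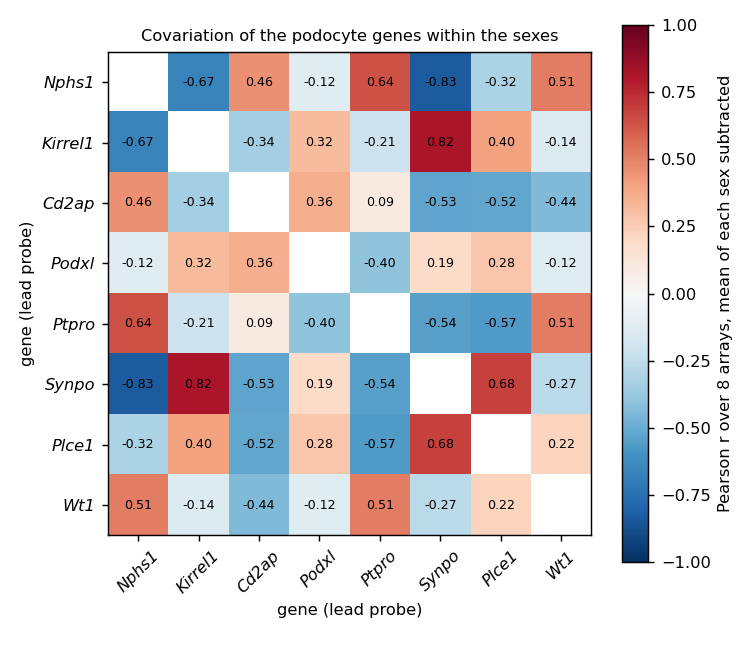
Pearson correlation of each pair of podocyte genes over 8 arrays after the mean of each sex was subtracted, with the lead probe of each gene on both axes and colour from -1 to 1. Positive and negative values are mixed, from -0.83 to 0.82.

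Probes of the same gene show how far such values carry over from probe to probe. Over the 8 arrays the 2 probes of Nphs1 correlated with r = 0.82 and the 2 of Ptpro with r = 0.91, or 0.75 and 0.73 with the mean of each sex subtracted. For Wt1 the lead probe correlated with the other probes at 0.59 and 0.64, and the 2 dimmer probes with each other at 0.91.

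The remaining podocyte genes were described with 5 lists that hold 59 genes, 40 of them with a named probe and all 40 well above background. Of these, 4 were lower in males, 1 was higher and 35 did not pass the test. Their median difference was -0.12, and 32 of the 40 had a lower mean in males. Over all tested probes, 4.67% were called lower in males, 3.39% were called higher and 8.06% in either direction. A lower mean in males was found at 58.4% of all tested probes, with a median difference of -0.0445. The slices were whole cortex, so how much of the signal of these 40 genes came from podocytes was not measured. The same holds for the sums of these lists below.

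Among 12 slit diaphragm partners 1 was lower in males and none was higher. Kirrel3, which encodes Neph2 of the same family as Kirrel1, had -4.75, -5.50, -4.97 and -5.59 in females and -6.28, -6.51, -6.25 and -5.95 in males. It was 2.06-fold higher in females (-1.04 ± 0.205, limma adjusted p = 0.0208). Its probe was dim, with a mean signal of 120, and its other probe was not well above background on any array. The Kirrel3 call was lost without female replicate 3 or male replicate 1, 2 or 3, with limma adjusted p-values of 0.0522 to 0.0594. It was also lost with the replicate number as a block (limma adjusted p = 0.0565).

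Neither of the 2 podocyte transcription factors with a named probe on the list passed the test. Foxc2 differed by -0.10 ± 0.126 and Tcf21 by -0.03 ± 0.0941, with limma adjusted p-values of 0.665 and 0.876. The Foxc2 difference was -0.218 without female replicate 2, -0.0443 without female replicate 3, -0.0361 without female replicate 4 and -0.0629 without male replicate 4. Tcf21 turned positive without female replicate 1 (0.0153) or male replicate 1 (0.0245).

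The list of surface, secreted and other podocyte genes moved in both directions, with 1 of 8 higher and 2 lower in males. Htra1, a secreted serine protease, had 0.93, 0.92, 1.12 and 1.13 in females and 2.0, 1.96, 2.02 and 1.88 in males. It was 1.91-fold higher in males (0.94 ± 0.0778, limma adjusted p = 0.000623). Cdkn1c, a cell cycle inhibitor kept on in mature podocytes, was 1.33-fold higher in females (-0.41 ± 0.0629, limma adjusted p = 0.00796), and its other probe gave -0.54 with an adjusted p of 0.00462 in limma. Cldn5, a tight junction protein of podocytes and endothelium, was 1.35-fold higher in females (-0.43 ± 0.073, limma adjusted p = 0.0109). Calls of Htra1 and Cdkn1c were kept in all 18 alternative settings. The Cldn5 call was kept in 17 and lost with the replicate number as a block (limma adjusted p = 0.0594).

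In the cytoskeleton and foot process list none of 11 genes passed the test, with differences from -0.31 to 0.12. Vim, which encodes the intermediate filament protein vimentin, found in podocytes and in mesenchymal cells, came nearest at -0.29 ± 0.0803 (limma adjusted p = 0.0626). Its females had -0.13, -0.13, -0.04 and -0.11 and its males -0.48, -0.36, -0.23 and -0.53, without overlap. Among 7 genes of the glomerular basement membrane and its receptors 1 was lower in males. This was Agrn, the gene of the heparan sulphate proteoglycan agrin, at -0.38 ± 0.0777 (limma adjusted p = 0.0252). Its other probe gave -0.23 with a limma adjusted p of 0.165. The Agrn call was lost without female replicate 1, 2 or 3 or male replicate 2, 3 or 4, with limma adjusted p-values of 0.0584 to 0.071. It was also lost with the replicate number as a block (limma adjusted p = 0.0738).

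**Figure D5:**
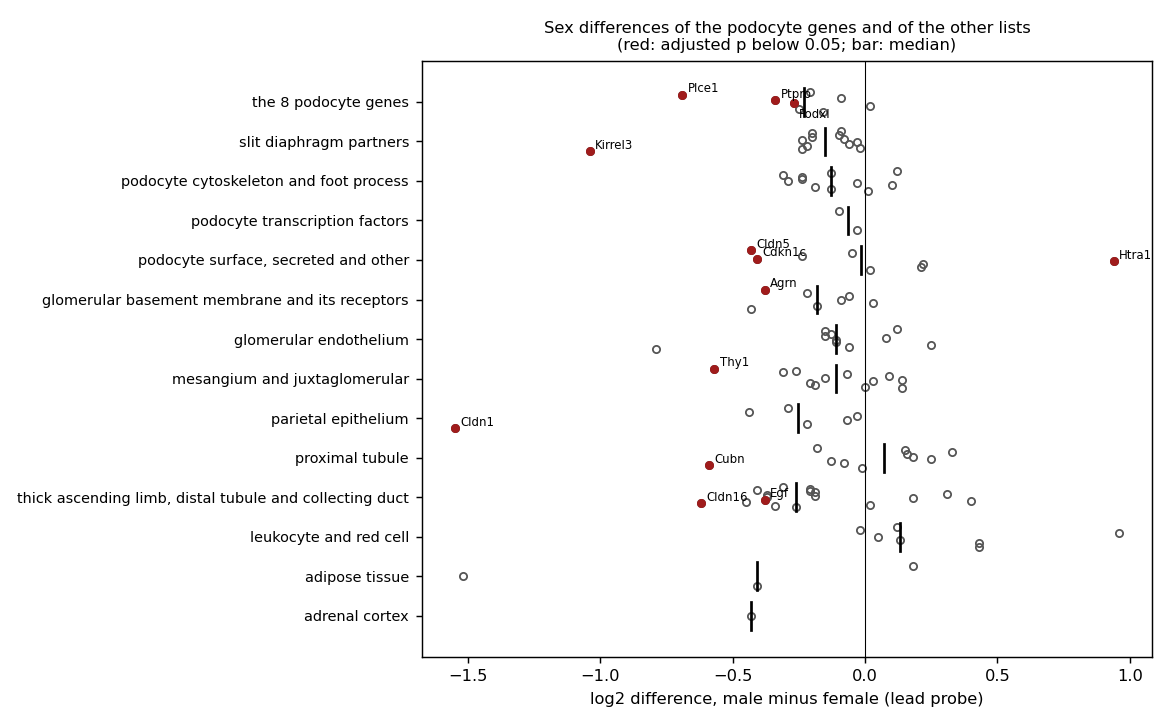
Male minus female difference (horizontal axis, log2, lead probe) of the 8 podocyte genes and of the genes of 13 other lists (vertical axis). Each circle is a gene, red marks an adjusted p below 0.05, and the bar is the median of the list, which is -0.23 for the 8 podocyte genes.

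Markers of the other cells of the slice were set beside these values. Of 28 markers of glomerular endothelium, mesangium and parietal epithelium, 2 were lower in males and none was higher, with a median difference of -0.12. Over all tested probes, 4.67% were called lower in males and 3.39% higher, with a median difference of -0.0445. Cldn1, a tight junction gene used as a parietal marker, was 2.93-fold higher in females (-1.55 ± 0.11, limma adjusted p = 0.000391). The paper that reported these arrays lists Cldn1 among genes of the proximal tubule, so its difference cannot be assigned to parietal cells here. Thy1, a mesangial surface marker in the rat, was 1.48-fold higher in females (-0.57 ± 0.133, limma adjusted p = 0.0389) at a dim probe of mean signal 95.3. The Thy1 call was lost without any 1 array except male replicate 3, with limma adjusted p-values of 0.0504 to 0.0936. None of 10 endothelial markers passed the test.

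Of 27 tubule markers, 3 were lower in males and none was higher at the lead probe, against 4.67% and 3.39% of all tested probes. Cubn, the gene of the proximal uptake receptor cubilin, was the proximal one of the 3 markers, at -0.59 (limma adjusted p = 0.00452). The others, Cldn16 and Egf of the thick limb and distal tubule, differed by -0.62 and -0.38 (limma adjusted p = 0.0287 and 0.0301). The Cldn16 call was kept without male replicate 1 or 4 and lost without any other array, with limma adjusted p-values up to 0.0774, and it was also lost with no filter on dim probes (0.0531). The Egf call was kept without female replicate 4 or male replicate 3 and lost without any other array, with limma adjusted p-values up to 0.0819. It was also lost with quantile normalization (0.0778), the deposited log2 values (0.0781), no filter on dim probes (0.0572) and the replicate block (0.0883). Gatm, a creatine synthesis gene of the proximal tubule, lay in the other direction, at 0.33 ± 0.0936 at its lead probe (limma adjusted p = 0.0706). Its other probe was 1.39-fold higher in males (0.47 ± 0.0964, limma adjusted p = 0.0238). The lead probe or the mean over probes of Gatm was called higher in 5 of 18 alternative settings, with limma adjusted p-values of 0.033 to 0.0463. No marker of blood, fat or adrenal cortex passed the test among 11 tested. The 7 leukocyte and red cell markers summed on the linear scale to between 2.94 and 4.31 times the 75th percentile in females and between 3.55 and 4.55 in males, and the macrophage marker Cd68 differed by 0.43 (limma adjusted p = 0.227). The adrenal genes Cyp11b1, Cyp11b2 and Mc2r were not above background in enough arrays to be tested.

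To set the lists side by side, the linear levels of each list were summed per rat in units of the 75th percentile. The 8 podocyte genes summed to between 14.5 and 15 in females and between 11.8 and 12.6 in males, a sum weighted to the probes of high signal such as Podxl. Without Podxl, a choice made after seeing the data, the sums were 4.75 to 5.66 and 4.23 to 4.47. Of the other podocyte lists, the transcription factors summed to 1.13 to 1.36 in females and 1.12 to 1.37 in males, and the surface and secreted genes to 13.6 to 15 and 14.7 to 16.6. The sums of slit diaphragm partners (8.41 to 8.92 and 7.22 to 8.36), of the cytoskeleton (62.2 to 66.5 and 56.9 to 61.2) and of the basement membrane (12.4 to 13.3 and 10.1 to 11.3) were lower in every male than in every female. The slit diaphragm sums were close, at 8.41 in the lowest female and 8.36 in the highest male. They are weighted to Fat1, of mean signal 19583, which did not pass the test (limma adjusted p = 0.174). The cytoskeleton sum is weighted to Ezr, of mean signal 138181, which did not pass the test either (limma adjusted p = 0.114). The basement membrane sum is weighted to Agrn, of mean signal 28386, whose call depended on single arrays. Sums without Fat1, Ezr or Agrn were not computed. The endothelial sum was 28.5 to 31.2 in females and 26.1 to 28.6 in males, the mesangial sum 16.5 to 17.4 and 15.7 to 17.9, and the parietal sum 3.30 to 3.54 and 2.43 to 2.57. Much of the parietal gap came from Cldn1, without which, also chosen after seeing the data, the sums were 2.38 to 2.58 and 2.11 to 2.26. Proximal tubule markers summed to 251 to 269 in females and 245 to 259 in males, and markers of the thick limb, distal tubule and collecting duct to 158 to 174 and 129 to 148. The sums of the 8 podocyte genes and of the parietal and distal markers thus did not overlap between the sexes. Neither did those of the slit diaphragm partners, the cytoskeleton and the basement membrane. Mesangial, proximal, podocyte transcription factor, and surface and secreted sums overlapped. Endothelial sums overlapped only narrowly, with 28.5 in the lowest female and 28.6 in the highest male. The distal sum is weighted to bright probes such as Umod, which did not pass the test (limma adjusted p = 0.088). How often such sums separate the sexes among all probes was not computed. The part of cell composition in the differences of Plce1, Podxl and Ptpro was not tested.

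The genes whose levels followed the mean of the 8 members most closely were found among 11132 genes with a named lead probe above background on all arrays. With each gene centred over the 8 rats, the member mean was 0.18, 0.08, 0.17 and 0.07 in females and -0.08, -0.13, -0.10 and -0.18 in males. The 10 most alike were Cyp1a1, Nubpl, Ttf2, Smoc2, Fam83f, Extl3, Cubn, Rab26, Gcgr and Tmem47, with Pearson r from 0.987 down to 0.977 over 8 arrays. All 10 had a lower mean in males, from -0.25 for Nubpl to -5.61 for Cyp1a1, and with the mean of each sex subtracted r ran from 0.78 to 0.93. The 10 genes were picked for a high pooled r with this same mean, which favours such values. With the mean of each sex subtracted, each member was also set against the mean of the other members. There r ran only from -0.53 for Cd2ap to 0.34 for Plce1. A correlation of 0.9 or more was found for 2.2% of the candidates, and the points share the sex difference.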

How the data were processed

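Cortical RNA of 4 male and 4 female rats was hybridised to 1-colour arrays, 1 rat per array. The authors deposited scanner files with processed signal intensity, which Feature Extraction 10.7.3.1 had background-subtracted and spatially detrended per the file headers. They also deposited a table of log2 values of the same arrays whose distribution is the same on every array. Its steps are not given in the sources used here, beyond limma 3.8.2 in the submitters' processing notes, and it served as an alternative.

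The log2 of the processed intensity was taken relative to its array's 75th percentile over spots other than controls, outlier spots were left out, and spots of a probe were averaged. Probes well above background on 4 or more of 8 arrays (23425) were tested with limma 3.58.1 in R 4.3.3, with Benjamini-Hochberg adjustment. Of these, 25 lacked a value on some array, none of them a podocyte probe. Gene names came from the transcript accessions of 17514 probes, matched to RefSeq (GRCr8). The annotation of the array names build rn4, so no probe positions are given. Permutation tests used scipy 1.17.1.

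The members, lists and tests were chosen with earlier results of these data known. Some genes of the lists are not reported here and were left out of their counts. Named genes were all members with every probe, at most the 4 genes of lowest p of a list with those the counts turn on, and the 10 genes most alike the member mean. On simulated data with 200 probes changed by 1 on the log2 scale among 23425, 154 were recovered with 6 false calls, and the median fitted change was 1.01. The number of arrays limits the precision, with a median SE of 0.111 over all tested probes. Alternatives were quantile normalization, the deposited log2 values, normexp correction with an offset of 50, other filters on dim probes, outlier spots kept, a trend and robust prior, the replicate number or slide row as a block, the mean over the probes of a gene, and leaving out each array.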

Additional observations from a re-analysis of the deposited data

Results flagged for a closer look

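A rat was singled out where its level lay far from the other 3 of its sex by Dixon's test at the 95% level. Of 90 groups examined, 4 stood out, and chance alone gives about 1 in 20, or 4.5. No podocyte member was among them. Agrn was 2.31 in female replicate 4, against 2.48 to 2.51 in the other females. Col4a4, a basement membrane collagen of podocytes, was 0.41 in male replicate 3, against 1.01 to 1.08 in the other males. Ehd3, a glomerular endothelial marker, was -4.21 in female replicate 4, against -5.53 to -5.47, and without that rat its difference was called (limma adjusted p = 0.046). Adipoq, an adipose marker, was -1.22 in male replicate 4, against -1.78 to -1.74.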

How the results depend on the processing

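The number of podocyte genes called, 3 in the main setting, was 1 with no filter on dim probes, where more probes enter the adjustment. It was 1 to 2 with an array left out, where fewer rats are compared. It was 2 with the slide row as a block and 2 with the mean over the probes of a gene. In these settings the call of Ptpro was lost, with limma adjusted p-values of 0.0528 and 0.055. In every setting the called gene or genes included Plce1, and no gene was called with a 2-fold difference in any. Other podocyte genes called numbered 5 in the main setting and 3 to 5 with an array left out, of which lower in males were 4 and 2 to 4, the lowest counts being those without female replicate 3 or male replicate 2. Called markers of other glomerular cells fell from 2 to 1 with quantile normalization, the deposited log2 values, normexp correction, no filter or the slide row as a block, and were 1 to 2 with an array left out. The cause was not tested. The median pooled correlation of -0.05 ran from -0.21 to 0.17 with an array left out. Signs turned for Tcf21 without female replicate 1 (0.0153) or male replicate 1 (0.0245) and for Cd2ap without male replicate 1 (-0.00775). With an array left out these ran from -0.0857 to 0.0245 for Tcf21 and from -0.00775 to 0.0537 for Cd2ap. Quantile normalization moved the median difference of all tested probes from -0.0445 to 0.00235. The other 7 members were lower in males in every setting.

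Replicate numbers in the labels do not state that rats were paired, and the same-numbered rats deviated together with correlations of only -0.00794 to 0.125. With the replicate block, 1 podocyte member was called in place of 3. Other podocyte genes called numbered 2 in place of 5, 1 of them lower in males in place of 4. Podxl and Ptpro then had limma adjusted p-values of 0.0957 and 0.0966. The median correlation with this block was 0.43. Each replicate number holds 1 female and 1 male, so subtracting its mean leaves only the difference between them. This median therefore repeats the sex difference and does not describe covariation within the sexes.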
